A study of Mus musculus with 6 samples.

Results

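The genes described here were rows of the count table chosen by mouse symbol. Their symbols begin with Snrp, with Lsm and a digit, or with Sf3a or Sf3b and a digit. Most encode core proteins of the spliceosome, the machine that removes introns from pre-mRNA. Lsm1, Lsm10, Lsm11, Lsm14a and Lsm14b instead encode proteins of mRNA decapping, the U7 particle or P-bodies. The rule found 34 protein-coding genes of the 27179 gene numbers in the table, and no row of a pseudogene. Of these, 25 are called Sm and LSm genes here, from their Snrp and Lsm symbols. They were 8 Sm ring genes, 13 LSm genes and 4 genes of proteins particular to the U1 or U2 particle. These 4 share the Snrp symbol but do not encode proteins of the Sm or LSm rings. The other 9 were genes of the SF3A and SF3B complexes. All 6 libraries were used.

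RNA came from bone marrow stromal cells of C57BL/6 mice at postnatal day 2. All 3 groups carried the genotype Cxcl12-dsred/+, a reporter allele with DsRed at the gene of the chemokine CXCL12, and the sort kept DsRed-positive cells negative for CD45, Ter119 and CD31. The anti-m6A group (2 libraries) was poly(A) RNA eluted from beads that carried 1.25 micrograms of an antibody to N6-methyladenosine (m6A). The IgG group (2 libraries) was RNA eluted from beads that carried the same amount of IgG. The Input group (2 libraries) was the 6% of RNA set aside before the pull-down. Beads and antibody were bound for 1 h and incubated with RNA for 2 h. The labels do not say how many animals were used, or whether the 2 libraries of a group came from separate animals or separate pull-downs, so p-values reflect only how these libraries varied, a spread that may be technical. They state no step that broke the RNA before the pull-down, and a count per gene therefore does not place the modification within an mRNA.

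In the spliceosome, the ring of 7 Sm proteins (B, D1, D2, D3, E, F and G) closes around the U1, U2, U4 and U5 small nuclear RNAs. The related LSm proteins form a nuclear ring with LSM8 on U6 small nuclear RNA and a cytoplasmic ring with LSM1 that takes part in mRNA decapping, and LSM10 and LSM11 belong to the U7 particle, which trims histone pre-mRNA. The SF3A and SF3B complexes are parts of the U2 particle and hold it at the branch point of the intron. m6A is placed on mRNA by a methyltransferase complex, most often in contexts such as GGAC and often near the stop codon.

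The libraries differed in depth. The anti-m6A libraries held 6102070 and 5133237 counts over 12714 and 12391 detected genes. The IgG libraries were the shallowest, with 2487148 and 1278735 counts over 3266 and 2723 genes. The Input libraries held 7125578 and 9493391 counts over 10024 and 11186 genes. Replicates varied 9.93 times as much as random sampling in anti-m6A, 21.9 times in IgG and 119 times in Input, over genes counted 20 times or more. Of the stromal marker list (6 genes, Cxcl12 among them), 6 of 6 were detected in each anti-m6A and Input library and 3 of 6 in each IgG library, where Pdgfra, Prrx1 and Kitl were at 0. Marker genes of 4 other cell types were read beside them. The 5 hepatocyte markers held 1.39% and 1.52% of the counts in IgG, against 0.0225% and 0.0244% in anti-m6A and 0.00796% and 0.0775% in Input. The 6 blood markers held 0.511% and 0.483% in IgG, against 0.0620% and 0.0704% in anti-m6A and 0.0386% and 0.0629% in Input, with Ptprc at 0 in all 6 libraries. The 4 endothelial markers were at 0 in IgG and reached at most 0.00670% elsewhere, and the 2 erythroid markers in the table reached at most 0.00121%. The groups are Input and eluates of a pull-down, so differences between them are not read as differences in cells. Within bulk RNA such as Input, fewer cells of a type and less RNA per cell cannot be told apart.

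The members differ widely in the length of their coding sequence. It ran from 231 nt in Snrpg to 3915 nt in Sf3b1, and the stretch before the stop codon is printed for the shortest and the longest protein of each class and for the pair Snrpb and Snrpn, because the comparison of short with long mRNAs turns on them. Each line is the last 150 coding nt of the mRNA with its stop codon, 5′ to 3′, from the GENCODE M21 transcripts on GRCm38, with each GGAC in capitals. The spans of these windows, introns included, are chr6:86376521-86378783 (plus strand) for Snrpg, chr2:130171933-130173048 (minus strand) for Snrpb, chr7:59983240-59983480 (minus strand) for Snrpn, chr17:27848033-27851762 (plus strand) for Snrpc, chr7:27187205-27187354 (minus strand) for Snrpa, chr8:78808211-78812976 (minus strand) for Lsm6, chr7:34347959-34351411 (minus strand) for Lsm14a, chr10:13008734-13008883 (plus strand) for Sf3b5 and chr1:54987334-54987483 (minus strand) for Sf3b1.
Snrpg: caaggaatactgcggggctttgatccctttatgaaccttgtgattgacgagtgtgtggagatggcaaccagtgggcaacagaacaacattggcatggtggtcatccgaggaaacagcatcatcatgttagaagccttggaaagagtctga
Snrpb: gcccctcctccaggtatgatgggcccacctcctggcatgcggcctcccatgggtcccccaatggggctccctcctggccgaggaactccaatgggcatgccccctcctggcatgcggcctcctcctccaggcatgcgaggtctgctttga
Snrpn: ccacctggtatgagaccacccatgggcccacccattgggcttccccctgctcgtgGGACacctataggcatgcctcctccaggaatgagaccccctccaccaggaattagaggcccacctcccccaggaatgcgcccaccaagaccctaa
Snrpc: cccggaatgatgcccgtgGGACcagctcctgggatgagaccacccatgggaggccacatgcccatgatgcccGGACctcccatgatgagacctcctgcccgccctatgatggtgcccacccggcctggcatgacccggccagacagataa
Snrpa: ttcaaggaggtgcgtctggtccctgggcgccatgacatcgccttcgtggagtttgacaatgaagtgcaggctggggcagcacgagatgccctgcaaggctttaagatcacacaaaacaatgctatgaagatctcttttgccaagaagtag
Lsm6: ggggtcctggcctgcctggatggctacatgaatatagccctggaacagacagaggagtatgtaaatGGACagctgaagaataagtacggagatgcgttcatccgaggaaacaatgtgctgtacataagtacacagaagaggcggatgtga
Lsm14a: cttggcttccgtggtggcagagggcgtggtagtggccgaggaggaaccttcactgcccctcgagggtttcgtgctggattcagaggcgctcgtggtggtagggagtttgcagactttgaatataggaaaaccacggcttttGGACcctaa
Sf3b5: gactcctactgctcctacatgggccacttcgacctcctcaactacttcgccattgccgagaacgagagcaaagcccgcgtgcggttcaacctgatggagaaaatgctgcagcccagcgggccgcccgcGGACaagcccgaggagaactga
Sf3b1: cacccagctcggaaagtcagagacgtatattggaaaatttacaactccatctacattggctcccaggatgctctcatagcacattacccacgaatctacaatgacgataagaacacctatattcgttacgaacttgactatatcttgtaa
GGAC was present in this window in Snrpn, Snrpc, Lsm6, Lsm14a and Sf3b5, and Snrpc held it at 2 places. Among the 33 members with enough counts to test, 17 (51.5%) held GGAC there, 13 of 24 Sm and LSm genes (54.2%) and 4 of 9 SF3 genes (44.4%), against 52.5% of the 10320 tested genes with such a window. Its reverse complement GTCC, the same motif on the other strand, was in 15 of 33 members (45.5%) and in 39.1% of the genes. The members thus held the motif in this window about as often as other genes did. Over the whole coding sequence the median was 5.20 GGAC per kb in the members and 4.91 per kb in all genes.

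The classes are not cleanly short and long. The SF3 genes Sf3b5 and Sf3b6 have coding sequences of 261 and 378 nt, as short as those of the Sm genes, and the LSm genes Lsm11, Lsm14b and Lsm14a have 1086, 1158 and 1389 nt. Coding length was used for the comparison, since the annotated transcript of Sf3b5 has a leader of 3280 nt before its coding sequence of 261 nt. Of the tested members, 22 were in the shortest quartile of all genes (804 nt or less), 4 in the second, 3 in the third and 4 in the longest (over 2121 nt).

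Levels are given as CPM, the counts scaled to the TMM-adjusted size of the library, and order between genes as CPM per kb of coding sequence. On that scale Sf3b5 led every group, with means of 5135 in anti-m6A, 1879 in IgG and 1604 in Input. This order depends on the length chosen, as the annotated mRNAs of Sf3b5 and Lsm6 have 3841 and 3792 nt but 261 and 243 coding nt. In mean CPM without a length, Sf3b5 led only anti-m6A, with 1340. Snrpb led IgG, with 790 against 490 for Sf3b5, and Input, with 496 against 419. Per kb of coding sequence, Lsm3 and Snrpd2 with 1974 each and Lsm10 with 1969 followed Sf3b5 in anti-m6A. The ranges of these 3 overlapped. Below them came Snrpb with 1631, Lsm6 with 1355 and Sf3b6 with 1209. The lowest detected members per kb in anti-m6A were Sf3a1 with 4.68 and Sf3a2 with 3.25, and Snrpn was last.

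Snrpn, which encodes the SmN protein made mainly in brain and is expressed from the paternal allele, had 0 counts in all 6 libraries. It was the only member that did not pass the filter on low counts. Snurf, which shares its locus, was also listed at 0 in all 6, and the sources used here do not say how reads over overlapping genes were counted. SmN is close to SmB: the proteins of Snrpb and Snrpn are identical at 88.8% of 240 aligned positions and their coding sequences at 77.5% of 723. Sm and LSm genes are also known for near-identical pseudogene copies, and how reads with several positions were counted is not given, so their counts are uncertain to that extent.

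**Figure D1:**
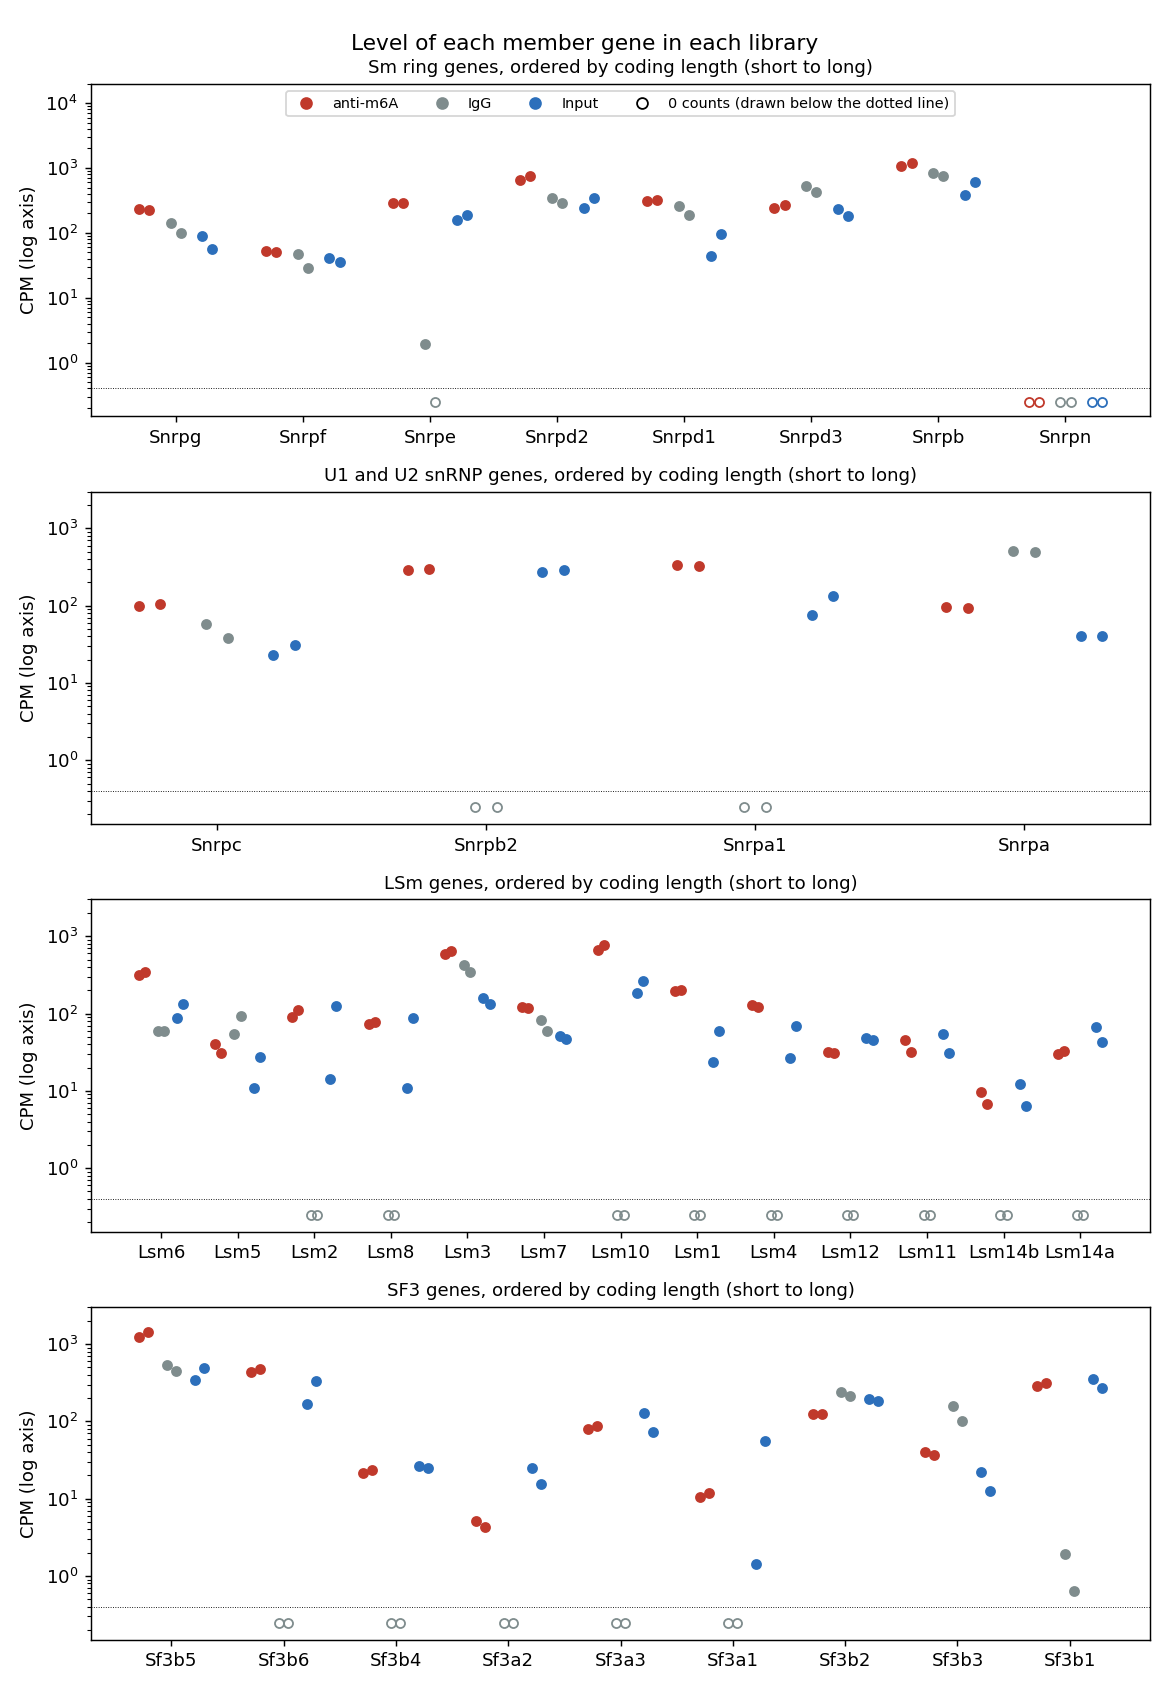
CPM (log axis) of each of the 34 members in each library, in 4 panels by class and ordered by coding length, with anti-m6A, IgG and Input as colours and open circles for 0 counts. The anti-m6A pairs lie close together for every detected member, the Input pairs of Sf3a1, Lsm2 and Lsm8 lie far apart, and 17 members are at 0 in both IgG libraries.

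The first comparison asked which of these mRNAs were over- or under-represented in the anti-m6A eluate relative to the RNA that went in. Relative to Input, 13 of the 33 tested members rose in anti-m6A, 1 fell and 19 did not pass the test (edgeR's quasi-likelihood test, Benjamini-Hochberg adjusted p of 0.05 over 11281 genes). Over all genes tested, 48.4% were called, 28.0% higher and 20.5% lower, so that 39.4% of members higher and 3.03% lower lay above and below the background. The median log2 change was 0.85 over the members and 0.18 over all genes. The Sm and LSm genes, as grouped here, made up 12 of the 13 higher calls (12 of 24, median 1.21). These 12 were 4 Sm ring genes, 3 U1 and U2 genes and 5 LSm genes. The 9 SF3 genes had 1 call in each direction and a median of -0.17. Levels of the anti-m6A and Input libraries did not overlap for 26 members, 21 higher and 5 lower, against 44.3% and 34.4% of all genes.

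These calls needed both anti-m6A libraries. Without anti-m6A replicate 1, only Lsm3 (2.15, adjusted p = 0.0401) and Sf3b5 (1.79, adjusted p = 0.0467) were called higher, and without replicate 2 only Lsm3 (1.95, adjusted p = 0.0465), with no member lower in either edgeR fit; over all genes these fits called 370 and 408 genes higher, against 3156 with both. The scaling also matters for the zero point: with DESeq2's size factors the log2 changes of all genes moved by a median of -0.44 and with library totals by -0.54, and the calls over all genes were then 2711 higher and 2982 lower, or 2609 and 3127, in place of 3156 and 2308. The members' calls became 13 higher and 2 lower, or 11 and 2.

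Among the Sm ring genes, 4 of 7 tested rose and none fell, with log2 changes from 0.31 to 2.21. Snrpd1, which encodes SmD1, stood at 314 and 326 CPM in anti-m6A, against 43.5 and 94.7 CPM in Input. Its change of 2.21 ± 0.43 (SE; edgeR adjusted p = 0.0125) was the largest of the ring. Snrpg, for SmG, had 237 and 227 CPM in anti-m6A, against 88.2 and 57.3 CPM in Input (log2 change 1.67 ± 0.33, edgeR adjusted p = 0.0126). Both anti-m6A libraries lay above both Input libraries for these genes, as they did for Snrpd2 with 652 and 758 CPM against 239 and 351, and for Snrpb with 1092 and 1178 CPM against 381 and 611. The log2 changes of Snrpd2 and Snrpb were 1.26 ± 0.26 and 1.19 ± 0.26 (edgeR adjusted p = 0.0146 and 0.0172). Snrpe, Snrpf and Snrpd3 did not pass, with changes of 0.74 ± 0.56, 0.42 ± 0.34 and 0.31 ± 0.23, although their libraries did not overlap either. Snrpe had 285 and 292 CPM in anti-m6A, against 158 and 186 CPM in Input, a difference of under 2-fold. Snrpb did not pass with library totals (0.66, adjusted p = 0.0537), where each library had to hold 10 counts or more (0.63, adjusted p = 0.0637) or with only the anti-m6A and Input libraries (1.26, adjusted p = 0.0540).

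Of the 4 genes of U1 and U2 proteins, 3 rose. Snrpc, whose product helps the U1 particle hold the 5′ splice site, had 100 and 106 CPM in anti-m6A, against 22.8 and 31.0 CPM in Input (log2 change 1.94 ± 0.34, edgeR adjusted p = 0.00906). Snrpa1, for the U2 protein A′, had 336 and 322 CPM in anti-m6A, against 76.8 and 134 CPM in Input (1.64 ± 0.36, edgeR adjusted p = 0.0250). Snrpa, for the U1 protein A, had 95.2 and 93.8 CPM in anti-m6A, against 40.2 and 40.4 CPM in Input (1.23 ± 0.19, edgeR adjusted p = 0.00718). The partner of SNRPA1 on U2, encoded by Snrpb2, stood apart from these, at 292 and 298 CPM in anti-m6A against 275 and 291 CPM in Input (0.06 ± 0.21, edgeR adjusted p = 0.837). Its change was -0.38 with DESeq2, which called it lower (adjusted p = 0.00902).

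Of the 13 LSm genes, 5 rose and none fell. The largest change was that of Lsm1, the subunit that defines the cytoplasmic decapping ring, with 198 and 199 CPM in anti-m6A against 23.5 and 59.4 CPM in Input (log2 change 2.26 ± 0.54, edgeR adjusted p = 0.0307). Lsm3, a subunit of both rings, had 581 and 639 CPM in anti-m6A, against 159 and 131 CPM in Input (2.07 ± 0.22, edgeR adjusted p = 0.00716). Lsm10, of the U7 particle, had 672 and 782 CPM in anti-m6A, against 183 and 262 CPM in Input (1.71 ± 0.28, edgeR adjusted p = 0.0117). All 3 were clear of their Input libraries by more than the gap between replicates. The shared ring subunits Lsm6 and Lsm7 changed by 1.58 ± 0.28 and 1.29 ± 0.27 (edgeR adjusted p = 0.00921 and 0.0148), Lsm7 not passing with library totals (0.75, adjusted p = 0.0549) or where each library had to hold 10 counts or more (0.73, adjusted p = 0.0534). The others did not pass. Lsm4 had 1.36 ± 0.55 and Lsm5 had 0.90 ± 0.55. Their Input libraries differed, with 26.7 and 70.0 CPM for Lsm4 and 10.9 and 27.5 CPM for Lsm5. Without Input replicate 2 these changes were 2.21 and 1.72, and Lsm4 was at 0.84 without Input replicate 1. For Lsm2 and Lsm8 the Input libraries disagreed more. Lsm2 had 89.0 and 112 CPM in anti-m6A, against 14.2 and 124 CPM in Input. Lsm8, the subunit that marks the U6 ring, had 73.0 and 78.7 CPM in anti-m6A, against 10.8 and 88.6 CPM in Input. Without Input replicate 2 both were called higher, by 2.82 and 2.81 (edgeR adjusted p = 0.00137 and 9.58e-04).

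The longer LSm genes lay at or below 0. Lsm11, the partner of Lsm10 in the U7 particle, had 45.2 and 32.0 CPM in anti-m6A, against 54.1 and 31.1 CPM in Input, and the groups overlapped (log2 change -0.14 ± 0.46). Lsm10 and Lsm11 thus gave unlike values, although their proteins sit in the same particle; the difference between these 2 genes was not tested. Lsm14a and Lsm14b, for P-body proteins, had changes of -0.81 ± 0.39 and -0.17 ± 0.55. Lsm12 also lay below 0, but it is not a longer gene. Its coding sequence of 588 nt is in the shortest quartile, where 21 of 22 members had positive changes. Lsm12 had 31.9 and 30.5 CPM in anti-m6A, against 48.5 and 45.9 CPM in Input, a change of -0.60 ± 0.34. None of these 4 passed edgeR's test, with adjusted p = 0.163 for Lsm14a, 0.219 for Lsm12, 0.830 for Lsm11 and 0.833 for Lsm14b; Lsm12 and Lsm14a were called lower by DESeq2 (-1.04 and -1.27) and by edgeR without Input replicate 2 (-0.64 and -1.10).

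**Figure D2:**
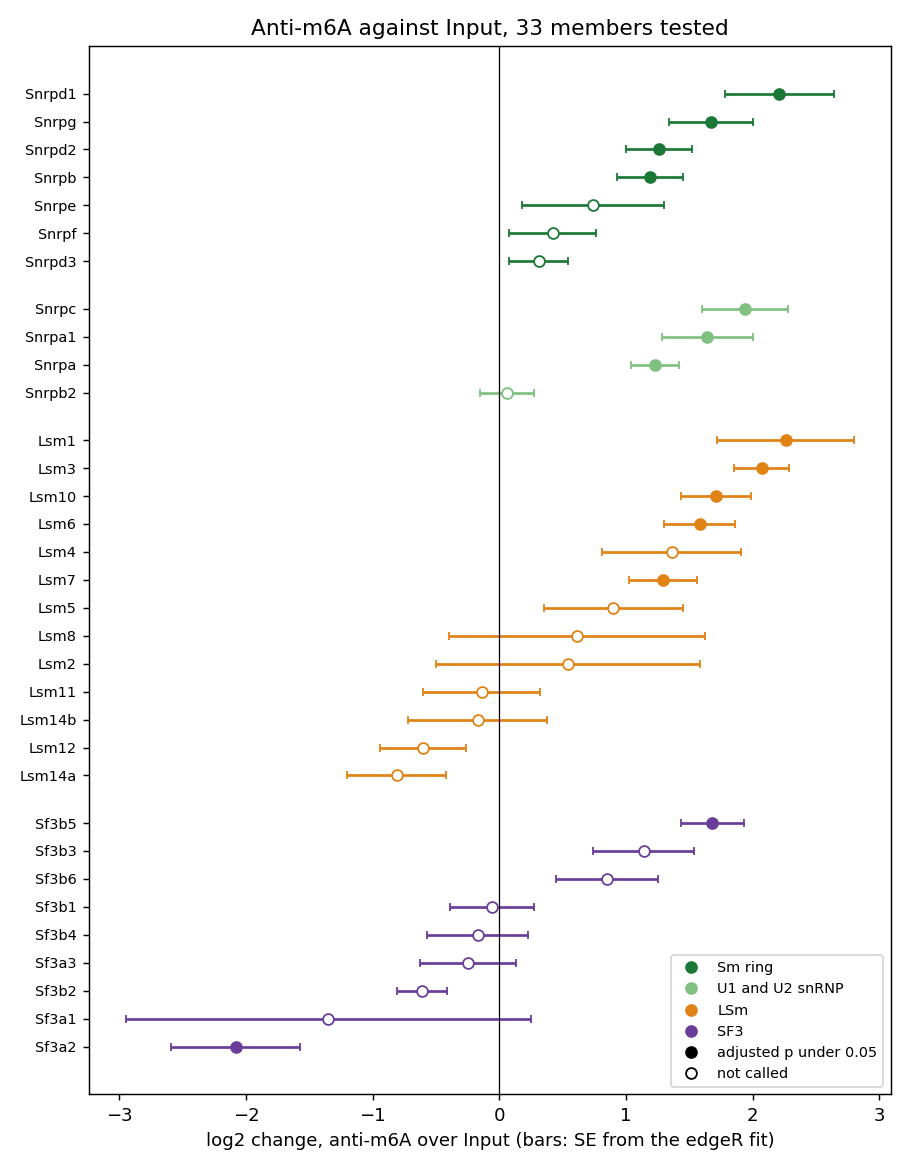
Log2 change in anti-m6A over Input of the 33 tested members (points) with the SE of the edgeR fit (bars), grouped by class; filled points had an adjusted p under 0.05. The 13 filled points on the right are 12 Sm and LSm genes and Sf3b5, and Sf3a2 at -2.08 is the filled point on the left.

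In the SF3 complexes, only the gene of the smallest subunit rose. Sf3b5, a small protein of the SF3B core, had 1254 and 1427 CPM in anti-m6A, against 339 and 498 CPM in Input (log2 change 1.68 ± 0.25, edgeR adjusted p = 0.00716). Sf3b6, the other short SF3 gene, had 435 and 479 CPM in anti-m6A, against 170 and 337 CPM in Input. The groups did not overlap, but its change of 0.85 ± 0.40 did not pass (edgeR adjusted p = 0.154). Without Input replicate 2 the change of Sf3b6 was 1.42. Sf3b1, the scaffold of the complex and its longest member, had 288 and 314 CPM in anti-m6A, against 352 and 274 CPM in Input. These ranges overlapped (-0.06 ± 0.33, edgeR adjusted p = 0.905).

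The other SF3 genes differed among themselves. Sf3a2, of the SF3A complex, fell: it had 5.19 and 4.29 CPM in anti-m6A, from 25 and 17 counts, against 24.9 and 15.3 CPM in Input, from 210 and 158 counts (log2 change -2.08 ± 0.51, edgeR adjusted p = 0.0324). It lost this call with replicate number as a block (-2.05, adjusted p = 0.110). Sf3b3 did not pass, with 40.0 and 36.6 CPM in anti-m6A against 22.1 and 12.7 CPM in Input, at a change of 1.14 ± 0.40 (edgeR adjusted p = 0.0677). Sf3b2 had 124 and 125 CPM in anti-m6A, against 195 and 184 CPM in Input, at -0.61 ± 0.20 (edgeR adjusted p = 0.0541). Both lay near the threshold: without Input replicate 1 both were called, at 1.61 and -0.55, and with DESeq2's size factors Sf3b2 was called at -1.05. Sf3a3 and Sf3b4 had changes of -0.25 ± 0.38 and -0.17 ± 0.40.

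Sf3a1 rested on Input libraries that disagreed. It had 10.4 and 11.8 CPM in anti-m6A, against 1.42 and 55.3 CPM in Input, from 12 and 570 counts. Its change was -1.35 ± 1.60 (edgeR adjusted p = 0.535), and it was -2.30 without Input replicate 1 (adjusted p = 0.00116) and 2.93 without Input replicate 2 (adjusted p = 0.00335). No direction can be given for this gene. The number of members called lower likewise was 3 without Input replicate 1 and 4 without Input replicate 2.

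The classes were then set beside genes of like length. Over all genes, the share called higher in anti-m6A was 40.4% in the shortest quartile of coding length, 23.9% in the second, 22.2% in the third and 20.5% in the longest, and the share called lower was 9.46%, 20.8%, 25.9% and 28.0%. The median log2 changes in these quartiles were 0.94, 0.06, -0.29 and -0.42. Among the members, 12 of 22 were called higher in the shortest quartile (54.5%, median 1.27), 1 of 4 in the second (Snrpa, median -0.15), 0 of 3 in the third (median -0.81) and 0 of 4 in the longest (median -0.33), and the 1 lower call (Sf3a2) was in the third. The members' medians did not fall steadily, as that of the third quartile lay below that of the longest. The median of the Sm and LSm genes was 1.38 above that of the SF3 genes, and that of the shortest quartile of all genes was 1.35 above that of the longest. No test of this difference was run, since members are not replicates of a class.

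Without Sf3b5 and Sf3b6, the 7 longer SF3 genes had no higher call, 1 lower call and a median of -0.25. Across the 33 members, Spearman's rho between coding length and log2 change was -0.57 (Pearson's r -0.61), and across the 10324 tested genes with an annotated coding sequence it was -0.20 (r -0.12). With the length of the whole mRNA the rho was -0.41 in the members and -0.20 in all genes, and with GC content it was -0.03 and 0.09. These values describe genes measured in the same 6 libraries, which are not independent. The difference between the class medians was 0.72 without Input replicate 1, where the SF3 median was 0.15, and 1.78 without Input replicate 2.

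**Figure D3:**
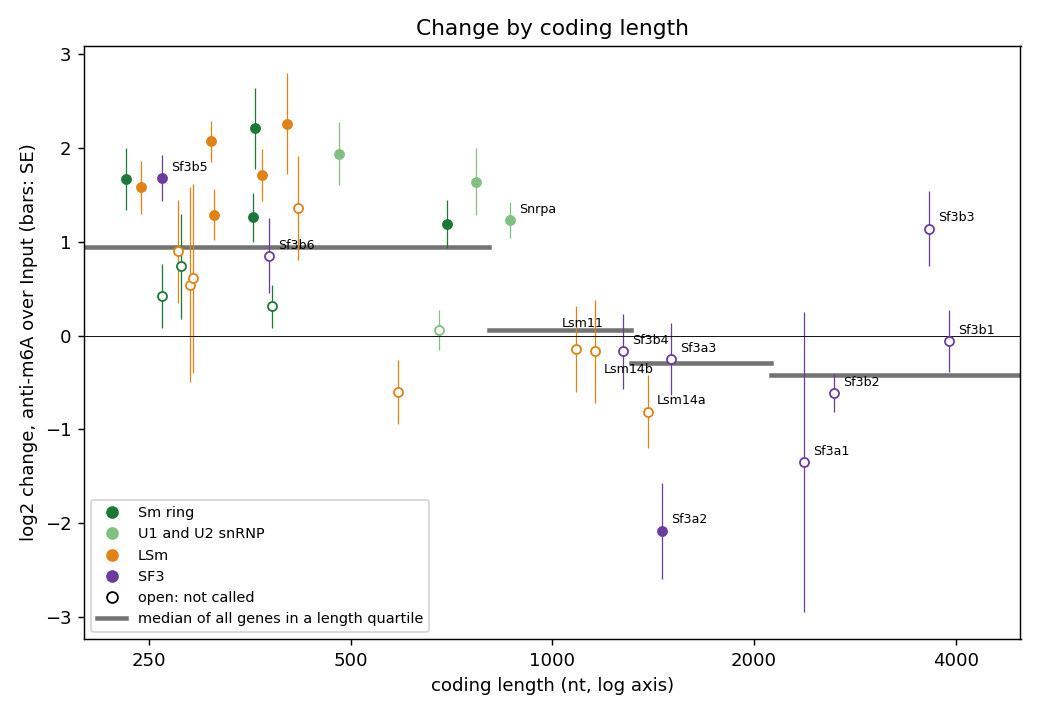
Log2 change in anti-m6A over Input against coding length in nt (log axis) for the 33 tested members, coloured by class, with SE bars; grey lines are the medians of all genes in each quartile of coding length. The short SF3 gene Sf3b5 lies among the short Sm and LSm genes at 1.68, and the longer LSm genes lie at or under 0 among the longer SF3 genes.

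As a share of all counts, the 13 LSm genes together took 0.185% and 0.195% in anti-m6A, against 0.0646% and 0.0673% in IgG and 0.0887% and 0.116% in Input. The Sm ring took 0.227% and 0.240% in anti-m6A, 0.224% and 0.216% in IgG and 0.140% and 0.165% in Input. The 9 SF3 genes together took 0.178% and 0.194% in anti-m6A, 0.0966% and 0.0927% in IgG and 0.149% and 0.160% in Input, also highest in anti-m6A. Without Sf3b5 and Sf3b6, the 7 longer SF3 genes took less in anti-m6A, with 0.0450% and 0.0466% in anti-m6A, 0.0415% and 0.0383% in IgG and 0.0887% and 0.0695% in Input. These shares use library totals, without TMM scaling, and the groups of anti-m6A and Input did not overlap in any of these sets.

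The second comparison set the anti-m6A beads against the IgG beads, the background of the pull-down. Of 33 members, 24 were higher in anti-m6A and 4 were lower (edgeR's quasi-likelihood test), against 73.1% higher and 8.31% lower of all genes (81.4% called in all). The members' share of 72.7% higher was close to that background. Levels did not overlap for 28 higher and 5 lower members, where 82.2% and 10.8% of all genes did not. The classes differed in their counts: 12 of 13 LSm genes and 3 of 4 U1 and U2 genes were higher, against 3 of 7 Sm ring genes. With DESeq2's size factors the counts were again 24 and 4, at a median shift of all genes of -0.22, and with library totals they were 20 and 5, at a shift of -0.36.

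Much of this rested on members that the IgG libraries did not hold. In IgG, 17 of the 34 members were at 0 in both libraries. Without the untested Snrpn this was 16 of 33, or 48.5%, where 73.4% of all tested genes were at 0. A count of 0 allows up to 1.16 and 1.94 CPM in these libraries. Against this floor of 3 counts per library, Lsm10 was at least 469-fold higher in anti-m6A, Sf3b6 at least 295-fold, Snrpa1 at least 212-fold and Snrpb2 at least 190-fold. The lowest such bound was 3.06-fold, for Sf3a2. Sf3b1 had 5 and 1 counts in IgG, against 1389 and 1247 counts in anti-m6A, and Snrpe had 5 and 0 counts, against 1372 and 1157. The median log2 change was 2.43 in the Sm and LSm genes and 2.84 in the SF3 genes with such genes at their bound, and 2.88 over all genes; the fitted medians were 5.20, 7.72 and 8.48.

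A group of members was abundant on IgG beads. Snrpa stood at 95.2 and 93.8 CPM in anti-m6A, against 504 and 494 CPM in IgG, with a log2 change of -2.40 ± 0.20 (edgeR adjusted p = 6.29e-04). Its rise over Input, above, thus stands beside a higher level in IgG than in either other group. Sf3b3, for a large subunit of SF3B, showed the same order, with 40.0 and 36.6 CPM in anti-m6A against 160 and 102 CPM in IgG (-1.77 ± 0.41, edgeR adjusted p = 0.00998). Snrpd3 had 241 and 269 CPM in anti-m6A, against 527 and 429 CPM in IgG (-0.91 ± 0.23, edgeR adjusted p = 0.0147), and Sf3b2 had 124 and 125 CPM, against 237 and 215 CPM (-0.86 ± 0.20, edgeR adjusted p = 0.0101). These 4 were the members called lower. Without anti-m6A replicate 1, or without replicate 2, only Snrpa kept its call among them, and without IgG replicate 1 Snrpd3 (-0.73, edgeR adjusted p = 0.0842) and Sf3b3 (-1.39, edgeR adjusted p = 0.0654) lost theirs. With at least 10 counts in each library Snrpd3 and Sf3b2 did not pass (-0.57 and -0.53, edgeR adjusted p = 0.0653 and 0.0520).

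Of the Sm ring genes that rose over Input, Snrpb and Snrpd1 did not pass against IgG. Snrpb had 1092 and 1178 CPM in anti-m6A, against 827 and 753 CPM in IgG (0.52 ± 0.26, edgeR adjusted p = 0.115), and Snrpd1 had 314 and 326 CPM, against 264 and 192 CPM (0.49 ± 0.42, edgeR adjusted p = 0.315). Fitted with only the anti-m6A and IgG libraries, both were called higher (adjusted p = 0.00786 and 0.0385), and Snrpb was also called with DESeq2 (0.56, adjusted p = 0.0247), where each library had to hold 10 counts or more (0.85, adjusted p = 0.0191) and without either Input library (adjusted p = 0.0129 and 0.0130). Snrpd2 and Snrpg rose, by 1.16 ± 0.26 and 0.94 ± 0.33 (edgeR adjusted p = 0.00934 and 0.0413). Snrpd2 lost its call without anti-m6A replicate 2 (1.06, adjusted p = 0.0611). Snrpg lost it with library totals (0.44, adjusted p = 0.246), with no count filter (adjusted p = 0.0516) and without any 1 of the anti-m6A and IgG libraries (0.69 to 1.25, adjusted p = 0.0594 to 0.200). Sf3b5 had 1254 and 1427 CPM in anti-m6A, against 530 and 451 CPM in IgG (1.45 ± 0.25, edgeR adjusted p = 0.00367), and Lsm6 had 318 and 341 CPM, against 60.3 and 60.3 CPM (2.45 ± 0.29, edgeR adjusted p = 0.00127). Snrpc, Lsm7 and Lsm3 rose by 1.10 ± 0.33, 0.74 ± 0.27 and 0.67 ± 0.21 (edgeR adjusted p = 0.0261, 0.0485 and 0.0309). All 3 lost these calls with replicate number as a block (adjusted p = 0.0575, 0.0874 and 0.0546) and with library totals (0.60, 0.23 and 0.16). They also lost them without either anti-m6A library (adjusted p = 0.152 to 0.331) and without IgG replicate 2 (0.83, 0.51 and 0.51), and Lsm7 with no count filter (adjusted p = 0.0660). Lsm5 did not pass at -1.05 ± 0.56 (edgeR adjusted p = 0.132). The comparisons with IgG and with Input share the anti-m6A libraries. The hepatocyte and blood markers named above were highest in IgG as well, and their part in these results was not tested.

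**Figure D4:**
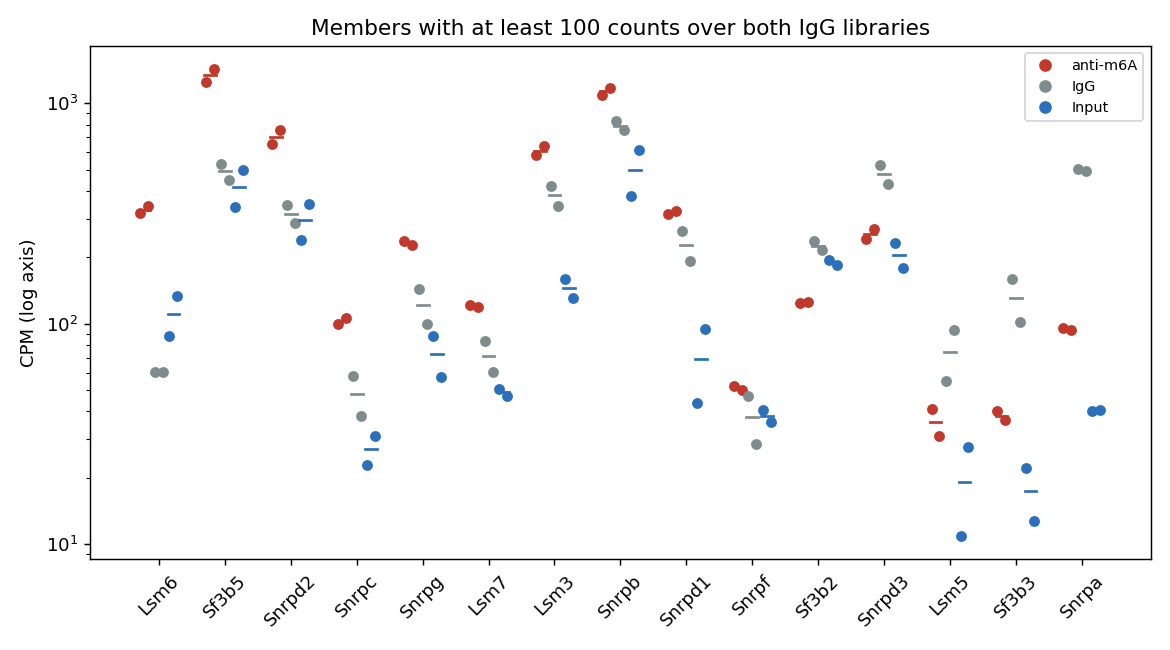
CPM (log axis) of the 15 members with at least 100 counts over both IgG libraries, ordered by their log2 change in anti-m6A over IgG; points are libraries and lines are means of anti-m6A, IgG and Input. Lsm6 and Sf3b5 stand at the left with anti-m6A highest, and Snrpa, Sf3b3 and Lsm5 at the right with IgG highest.

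The third comparison, IgG against Input, described which members the control beads carried. Of 33 members, 6 were higher in IgG and 19 lower (edgeR's quasi-likelihood test), or 18.2% and 57.6%, against 9.89% and 61.5% of all genes (71.4% called in all). Levels did not overlap for 11 higher and 19 lower members, where this held for 12.3% and 66.7% of all genes. The highest was Snrpa, with 504 and 494 CPM in IgG against 40.2 and 40.4 CPM in Input (log2 change 3.63 ± 0.21, edgeR adjusted p = 5.16e-04). Sf3b3 had 160 and 102 CPM in IgG, against 22.1 and 12.7 CPM in Input (2.91 ± 0.43, edgeR adjusted p = 0.00219). Lsm5, Snrpd1, Lsm3 and Snrpd3 were the others, at 1.95 ± 0.57, 1.72 ± 0.43, 1.40 ± 0.22 and 1.22 ± 0.23 (edgeR adjusted p = 0.0259, 0.0148, 0.00262 and 0.00565). None of these 4 passed where each library had to hold 10 counts or more (1.10, 0.82, 0.49 and 0.31). Lsm5 also lost its call with DESeq2's size factors (1.55, adjusted p = 0.0613) and without IgG replicate 2 (1.49, adjusted p = 0.126), and Snrpd1 without IgG replicate 1 (1.42, adjusted p = 0.0757).

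Of the 19 members that were lower, 16 were at 0 in both IgG libraries, and the others were Sf3b1, Snrpe and Lsm6. Among those at 0, Sf3a1 passed at an edgeR adjusted p of 0.0440, with 12 and 570 counts in Input. Sf3a1 lost its call when either IgG library was left out, and Lsm8 without IgG replicate 1. Lsm6 had 60.3 and 60.3 CPM in IgG, against 87.6 and 133 CPM in Input (-0.87 ± 0.28, edgeR adjusted p = 0.0346). This call was lost with replicate number as a block (-0.84, adjusted p = 0.0603) and without any 1 of the anti-m6A and IgG libraries (adjusted p = 0.0903 to 0.142). Snrpb2, at 0 in IgG and 275 and 291 CPM in Input, was at least 182-fold higher in Input, and Sf3b6 at least 164-fold. Snrpf, by contrast, differed little between the pairs, with 47.2 and 28.5 CPM in IgG against 40.4 and 35.8 CPM in Input, ranges that overlapped. Of the 4 U1 and U2 genes, the U1 genes Snrpa and Snrpc were counted in IgG and the U2 genes Snrpa1 and Snrpb2 were at 0. Hepatocyte and blood markers were also higher in IgG than in Input, and their part in this was not tested.

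Genes that work with these proteins were read in the same fits, from 4 lists. Among 36 tested genes of other small nuclear ribonucleoprotein and SF3-bound proteins, 3 were higher and 5 lower in anti-m6A than in Input (edgeR), with a median log2 change of 0.27. For this and the next 3 lists, the shares of all genes called in this comparison were 28.0% higher and 20.5% lower. Snrnp25, of the U11/U12 particle of the minor spliceosome, rose by 3.74 ± 0.34 with 1593 and 1519 counts in anti-m6A against 291 and 197 in Input, and had 3574 and 2015 counts in IgG. Txnl4a, for a U5 protein, rose by 1.61 ± 0.23. Prpf38b fell by 2.65 ± 0.25, and Prpf3, for a U4/U6 protein, had a log2 change of -2.65 ± 0.82 and was also called lower. Phf5a, the short SF3B subunit that does not share the SF3 symbol, had a coding sequence of 333 nt and a change of 1.51 ± 0.56 that did not pass (edgeR adjusted p = 0.0931).

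Of 23 tested genes of the NTC complex and the catalytic steps, 7 were higher and 5 lower in anti-m6A than in Input, with a median of -0.33. Both the largest rise and the largest fall among genes counted in every anti-m6A and Input library were in RNA helicases. Dhx8, which releases the spliced mRNA, rose by 3.89 ± 0.87, and Dhx16, which acts before the first step, fell by 3.94 ± 0.36, with 36 and 28 counts in anti-m6A against 810 and 1311 in Input. Ppil1 rose by 2.52 ± 0.37 over Input, but its mean level was highest in IgG. It had 764 CPM in IgG, 147 in anti-m6A and 25.7 in Input, and was called lower in anti-m6A than in IgG (-2.38 ± 0.37, edgeR adjusted p = 0.00275). Dhx15, which takes the released lariat spliceosome apart, fell by 1.82 ± 0.44. Dhx8 and Dhx16 have coding sequences of 3735 and 3135 nt, so long genes moved both ways.

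The SMN complex and the Sm methylosome prepare Sm proteins and load them onto small nuclear RNA. Of their 16 tested genes, 6 were higher and 4 lower, with a median of 1.78. Tgs1, which trimethylates the cap of small nuclear RNAs, rose by 3.93 ± 0.59, and Phax, an export adaptor of these RNAs, rose by 2.95 ± 0.42. Gemin5, which recognises small nuclear RNAs, fell by 4.78 ± 0.55, with 4 and 4 counts in anti-m6A against 257 and 218 in Input. Gemin2, which holds Sm proteins for assembly, was also called lower, with 1 and 1 counts in anti-m6A against 55 and 36 in Input.

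Of 11 tested partners of the LSM1 ring and LSM14 in decapping and P-bodies, 1 was higher and 4 were lower, with a median of -0.21. The higher one was Xrn1, the exonuclease that degrades decapped mRNA, at 6.40 ± 0.65, with 172 and 167 counts in anti-m6A against 5 and 3 in Input. Dcp1a, an activator of decapping, fell by 3.31 ± 0.50, and Patl1, which bridges the LSM1 ring and decapping factors, had 2 and 3 counts in anti-m6A against 132 and 118 in Input. Against IgG the 4 lists had 24, 16, 11 and 7 genes higher in anti-m6A and 7, 6, 2 and 0 lower, where 73.1% and 8.31% of all genes were called. In IgG against Input they had 6, 5, 3 and 0 genes higher and 21, 15, 9 and 8 lower, where 9.89% and 61.5% of all genes were. The larger count of each list lay near the share of all genes, and the smaller counts held few genes. Lower in anti-m6A than in IgG were 7 of 36, 6 of 23, 2 of 16 and 0 of 11, above the share of all genes in each list but the last. Higher in IgG than in Input were 6 of 36, 5 of 23, 3 of 16 and 0 of 11, again above that share in each list but the last. These differences from all genes were not tested, and in the last 2 lists counts of 0 to 3 are too few to read.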

How the data were processed

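The deposited file gives the authors' raw counts, 1 row for each Entrez gene number and 1 column for each of 6 libraries. Picard, featureCounts, edgeR 3.38.1 and mm10 are named in the submitters' processing notes, without roles or order. No source used here gives the aligner or the annotation. Per the labels' protocols, libraries followed Smart-seq2, which copies full-length polyadenylated RNA and carries no molecular identifiers or strand, so intervals and floors cover counting error only and reads from an antisense or overlapping gene cannot be separated.

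Columns were matched to samples by title. Symbols came from RefSeq GRCm38.p6, where 25275 of 27179 gene numbers matched. Genes were kept by filterByExpr (minimum count 10, minimum total 15), which left 11281, and scaled by TMM. All 6 libraries entered 1 edgeR 4.0.16 quasi-likelihood fit with 3 group means (R 4.3.3, limma 3.58.1), adjusted by Benjamini-Hochberg, threshold 0.05. The SE is the log2 change over the square root of F. CPM uses the TMM-adjusted library size. A fold against a group at 0 uses 3 counts per library in its place. Lengths are of the APPRIS principal transcript in GENCODE M21.

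All members are named. Of the other lists, the text names the called genes with the 2 largest rises and falls over Input that had counts in every anti-m6A and Input library, and also Phf5a, chosen after its values were seen. The members and lists were chosen with earlier results of these data known. The alternatives were DESeq2 1.42.0, its size factors, library totals, no count filter, at least 10 counts in each library, a replicate block, only the 2 groups compared, and leaving out each library. Samples were grouped by title, and unbound fractions were not used here.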

Additional observations from a re-analysis of the deposited data

How the results depend on the processing

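Over the alternatives, 360 of 411 values of single members in anti-m6A against Input kept their call (higher, lower or not called). This held for 361 of 411 in anti-m6A against IgG and 387 of 410 in IgG against Input. Values not called in either fit count here even where their sign changed, as for Snrpf and Snrpd1 in anti-m6A against IgG with library totals. With at least 10 counts in each library, which tests 15 members, 8 were higher and 2 lower in anti-m6A against IgG, 8 were higher and 1 lower (Sf3b2, -1.17, which had not passed in the reported fit) in anti-m6A against Input, and 2 were higher and 5 lower in IgG against Input. The difference between the medians of the Sm and LSm genes and the SF3 genes in anti-m6A against Input was then 0.14, and the SF3 median was -0.53 against IgG and 0.57 against Input, over 3 genes. In IgG against Input, Sf3b5, Sf3b2 and Snrpd2 were then at -0.67, -0.64 and -0.80. Members lower in anti-m6A against Input numbered 2 with DESeq2's size factors, 2 with library totals, 5 with DESeq2 and 0 with the replicate block, and Snrpb2 was at -0.38 with DESeq2. Leaving out 1 library at a time gave 20 to 26 higher and 1 to 5 lower members in anti-m6A against IgG, 1 to 19 higher and 0 to 4 lower in anti-m6A against Input, and 5 to 8 higher and 16 to 19 lower in IgG against Input, and class medians 0.72 to 1.78 apart. The SF3 median in anti-m6A against Input ran from -0.28 to 0.15, the second without Input replicate 1, and Sf3a1 ran from -2.30 without Input replicate 1 to 2.93 without Input replicate 2. The median of the Sm and LSm genes in anti-m6A against Input was 0.78 with DESeq2's size factors and 0.67 with library totals, and that of the SF3 genes -0.61 and -0.72. The cause of these changes was not tested, apart from fewer genes or libraries entering where the setting says so.

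Same-numbered libraries deviated together over 1589 genes (correlations of 0.41 for anti-m6A and IgG, 0.21 for anti-m6A and Input, 0.20 for IgG and Input), but with 2 numbers that the labels do not tie to an animal or batch they share only a number. With replicate number as a block, 22 members were higher and 4 lower in anti-m6A against IgG, 13 and 0 in anti-m6A against Input, and 6 and 18 in IgG against Input. The IgG libraries' depth limits what a 0 there says, and the spread between Input libraries limits Sf3a1, Lsm2 and Lsm8 most.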
